A study of Mus musculus with 8 samples.

Results

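Voltage-gated sodium channels carry the inward sodium current that starts and propagates the action potential. Each channel has 1 large pore-forming alpha subunit, and small beta subunits with an immunoglobulin-like extracellular domain attach to it and change its gating and its delivery to the membrane. Sensory neurons of the dorsal root ganglion are known for an unusual set of alpha subunits: beside channels that the pufferfish toxin tetrodotoxin blocks, small pain-sensing neurons carry Scn10a (NaV1.8) and Scn11a (NaV1.9), which resist it. The genes described here were the 9 rows of the deposited expression table named Scn1a, Scn3a, Scn8a, Scn9a, Scn10a and Scn11a, which encode 6 alpha subunits, and Scn2b, Scn3b and Scn4b, which encode 3 beta subunits, out of 21878 rows in all. They were chosen by gene family.

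RNA was sequenced from ganglia at lumbar levels 4 and 5 of C57BL/6 mice, whose neurons send axons into the sciatic nerve, 3 days after surgery. The 4 groups had 2 libraries each. In dKO SNI ganglia the nerve had been cut (axotomy, called SNI in the sample titles) in Advillin-Cre:Myh9/10 double-floxed mice, and dKO sham ganglia came from the same genotype after sham surgery. WT SNI and WT sham ganglia came from Myh9/10 double-floxed mice without the Cre, so all 4 groups carried floxed alleles of Myh9 and Myh10, which encode non-muscle myosin heavy chains. Advillin drives Cre in sensory neurons, while the ganglion also holds satellite glia, Schwann cells, fibroblasts and macrophages that keep both genes. The sources used here do not say how many animals went into a library or give their age, so p-values measure the spread between libraries, which may be technical.

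The values were FPKM, that is fragments scaled to transcript length and to the mapped fragments of a library, and since they are per length the levels of different genes can be set side by side. Library totals ran from 278310 to 339920 FPKM, 11696 to 12478 genes reached 1 FPKM in a library, and read depth is unknown. Myh9 stood at 24.6 and 24.4 FPKM in dKO SNI, 30.8 and 29.7 in WT SNI, compared with 10.9 and 12.1 in dKO sham and 27.2 and 31.6 in WT sham. Myh10 stood at 5.31 and 4.12 FPKM in dKO SNI, 13.8 and 10.4 in WT SNI, against 12.2 and 14.4 in dKO sham and 18.1 and 23.5 in WT sham, lowest in the library pair that had both the Cre and the cut nerve. The injury marker Atf3 lay between 147 and 178 FPKM in the 4 SNI libraries and between 2.71 and 10.0 FPKM in the 4 sham libraries, and the sensory neuron genes Prph (299 to 699 FPKM) and Isl1 (15.8 to 33.5 FPKM) were present in every library. The groups also differed in Y-linked transcripts: 4 such genes summed to 38.7 and 37.4 FPKM in dKO SNI and 23.2 and 22.7 FPKM in WT sham, but to at most 0.0109 FPKM in the WT SNI and dKO sham libraries. In each comparison of 2 groups the Y-linked difference therefore cannot be told apart from surgery or genotype, whereas the injury change averaged over both genotypes and the genotype difference averaged over both surgeries each have both kinds of library on both sides. Library 2 of WT sham stood apart in 8 skeletal muscle genes, which summed to 551 FPKM there against 2.01 to 14.9 FPKM in the other 7 libraries.

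The alpha subunits differ in sequence at the site that sets tetrodotoxin sensitivity, and the stretches below show that difference because the results are ordered by it. Each is 30 bases of the coding sequence at the pore loop of the first repeat, from the longest coding transcript in GENCODE vM21, with the codon of the deciding residue in capitals.
Scn10a: ctcatgacgcaggacTCCtgggaacggctg
Scn11a: gttatgactcaagacTCCtgggagaagctt
Scn9a: ctaatgactcaggacTACtgggagaacctt
Scn8a: ctcatgactcaggacTACtgggagaactta
Scn3a: ctcatgactcaagacTACtgggagaacctt
The capitals code for serine in Scn10a and Scn11a, the tetrodotoxin-resistant subunits, and for an aromatic residue in Scn9a, Scn8a and Scn3a, which are tetrodotoxin-sensitive, as Scn1a is. The genes are clustered. On build GRCm38, Scn10a (chr9:119608456-119719322) and Scn11a (chr9:119753759-119825456) lie beside each other on the minus strand, Scn3a (chr2:65457118-65567627), Scn1a (chr2:66270778-66440840) and Scn9a (chr2:66480080-66634962) share chromosome 2, also on the minus strand, and Scn8a (chr15:100869858-101045938) lies on the plus strand of chromosome 15. Of the beta subunit genes, Scn2b (chr9:45117782-45130070) and Scn4b (chr9:45138395-45154152) are neighbours on the plus strand and Scn3b (chr9:40269217-40291618) is on the same strand of that chromosome. All 9 are protein-coding. Annotated genes that the table does not list overlap Scn1a (Gm13630), Scn3a (Gm13595), Scn9a (Gm13629, Gm13627 and Gm23046), Scn2b (Gm10684) and Scn3b (Gm47266), most of them on the opposite strand, and since the sources used here do not state whether counting used strand, their reads cannot be told apart from those of the channel gene.

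In uninjured WT ganglia the order of levels was Scn10a, Scn11a, Scn4b, Scn9a, Scn3b, Scn1a, Scn8a, Scn2b and Scn3a, with mean FPKM of 130, 86.9, 65.5, 37.2, 20.1, 15.1, 12.0, 9.51 and 0.456 (n = 2), and no neighbours in that order overlapped. Both libraries of dKO sham gave nearly the same order, except that Scn11a overlapped with Scn4b and Scn2b with Scn8a. After the nerve was cut, the order of means differed from sham in dKO mice. In WT mice it was the same as in WT sham, with more overlap between neighbours. In dKO SNI Scn9a stood second at 18.5 ± 0.307 FPKM, above Scn11a at 12.9 ± 4.63 FPKM (SD, n = 2 each) with no overlap, and Scn11a, Scn4b and Scn3b formed a run in which each neighbour overlapped the next. In WT SNI Scn11a, Scn4b and Scn9a formed such a run at means of 29.7, 29.0 and 26.0 FPKM, and so did Scn1a, Scn8a and Scn2b at 6.03, 5.72 and 5.18 FPKM.

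**Figure D1:**
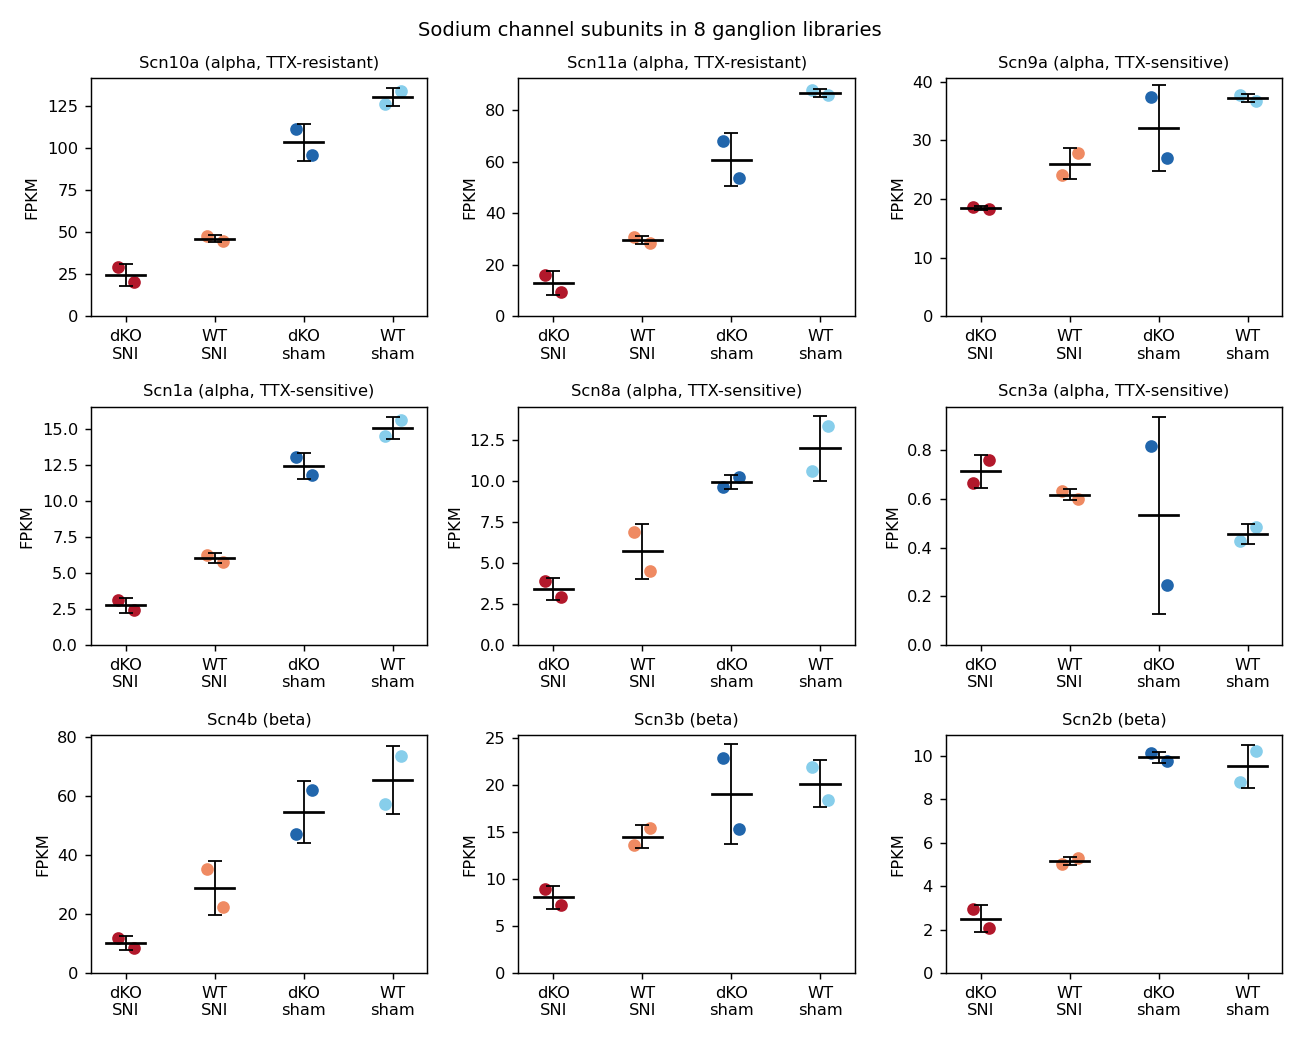
FPKM of the 9 sodium channel genes in each library (points), with the group mean and SD (bars, n = 2), in panels with axes that start at 0. Scn10a, Scn11a, Scn1a and Scn4b step up from dKO SNI to WT SNI to dKO sham to WT sham without overlap except between the Scn4b sham groups, while Scn3a stays under 1 FPKM throughout.

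The 8 sodium channel genes that could be tested had lower values after axotomy in both genotypes, though not all were called in WT mice. Of the 8 genes that passed the filter of at least 1 FPKM in at least 2 libraries, 8 fell in dKO SNI against dKO sham, where 24.6% of the 12884 tested genes fell, and 6 fell in WT SNI against WT sham, where 9.38% did (limma on log2(FPKM + 1), adjusted p under 0.05 over all tested genes). Their median log2 change was -1.75 in dKO and -1.07 in WT mice, beside medians of 0.00 and 0.07 over all tested genes. The SNI and sham libraries did not overlap for 8 of 8 members in either genotype, always with SNI lower, against 37.8% of all tested genes in dKO and 29.2% in WT mice. In whole ganglia, fewer neurons of a type and less channel RNA per neuron cannot be told apart.

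Scn10a, the main sodium channel of the action potential upstroke in nociceptors, had the highest mean of the 9 genes in every group. It stood at 29.3 and 20.2 FPKM in dKO SNI, 47.5 and 44.6 in WT SNI, compared with 111 and 95.8 in dKO sham and 126 and 134 in WT sham. The 4 groups did not overlap. SNI left 23.9% of the mean sham FPKM in dKO mice (log2 change -2.04 ± 0.18 SE, adjusted p = 7.66e-05) and 35.4% in WT mice (-1.48 ± 0.18, adjusted p = 0.000754). Scn11a carries a slow current that persists near the resting potential and sets how easily nociceptors fire. Its values were 16.1 and 9.59 FPKM in dKO SNI, 30.8 and 28.6 in WT SNI, against 68.1 and 53.6 in dKO sham and 88.0 and 85.8 in WT sham. Again no 2 groups overlapped, and SNI left 21.1% of the sham mean in dKO (log2 change -2.19 ± 0.21, adjusted p = 0.000115) and 34.2% in WT mice (-1.52 ± 0.21, adjusted p = 0.00163). Both calls held when any 1 library was left out.

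Among the tested tetrodotoxin-sensitive subunits (Scn9a, Scn1a and Scn8a), Scn9a (NaV1.7), which amplifies small depolarisations and whose loss in humans abolishes pain, had the smallest injury change in both genotypes. It had 18.7 and 18.3 FPKM in dKO SNI, 24.2 and 27.9 in WT SNI, compared with 37.4 and 27.0 in dKO sham and 37.8 and 36.7 in WT sham, so the highest WT SNI library was above the lower dKO sham library. The fall was called in dKO mice (log2 change -0.75 ± 0.16, adjusted p = 0.00467). In WT mice the difference of -0.50 ± 0.16 just missed the threshold (adjusted p = 0.0503), and that adjusted p ranged from 0.00757 to 0.806 over 19 alternative analyses, 8 of which called it. Without library 1 or 2 of dKO sham, which enter that comparison only through the spread, the adjusted p was 0.0242.

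Scn1a (NaV1.1), found mainly in larger myelinated sensory neurons, stood at 3.13 and 2.40 FPKM in dKO SNI, 6.29 and 5.78 in WT SNI, against 13.1 and 11.8 in dKO sham and 14.6 and 15.7 in WT sham. The 4 groups did not overlap, and Scn1a fell by 1.84 ± 0.14 in dKO (adjusted p = 4.54e-05) and by 1.20 ± 0.14 in WT mice (adjusted p = 0.000614) on the log2 scale. Scn8a (NaV1.6) is the main channel at the nodes of Ranvier. It stood at 3.92 and 2.94 FPKM in dKO SNI, 6.92 and 4.52 in WT SNI, compared with 9.63 and 10.2 in dKO sham and 10.6 and 13.4 in WT sham. No 2 groups overlapped, and Scn8a fell by 1.31 ± 0.20 in dKO (adjusted p = 0.000742) and by 0.97 ± 0.20 in WT mice (adjusted p = 0.00808) on the log2 scale. The WT call for Scn8a was lost without library 2 of WT sham, the one with muscle transcripts (adjusted p = 0.0696), and without library 2 of WT SNI (0.0621), in a range of 0.00431 to 0.0696 over all alternatives.

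Scn3a (NaV1.3), the alpha subunit of embryonic neurons that rat studies report to return after nerve injury, stayed under 1 FPKM in all 8 libraries and was not among the genes tested. It was listed at 0.665 and 0.761 FPKM in dKO SNI, 0.632 and 0.600 in WT SNI, against 0.818 and 0.245 in dKO sham and 0.427 and 0.486 in WT sham. The WT SNI libraries were above both WT sham libraries, while the dKO sham libraries lay above and below both dKO SNI libraries. With no filter on low values the differences were 0.19 ± 0.16 in dKO (adjusted p = 0.420) and 0.15 ± 0.16 in WT mice (adjusted p = 0.589) on a scale that understates changes of low genes, so no change of Scn3a was detectable.

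Of Scn2b, Scn3b and Scn4b, Scn4b had the highest FPKM in the WT sham group and the widest spread between replicates. Scn4b supplies the blocking particle that allows resurgent current in large sensory neurons. Its values were 12.0 and 8.52 FPKM in dKO SNI, 35.5 and 22.6 in WT SNI, compared with 47.2 and 62.1 in dKO sham and 57.3 and 73.7 in WT sham, and SNI lay below sham in both genotypes without overlap. In dKO mice SNI left 18.7% of the sham mean, the lowest remainder of the 8 tested genes (log2 change -2.31 ± 0.24, adjusted p = 0.00016), against 44.3% in WT mice (-1.17 ± 0.24, adjusted p = 0.0094). Scn2b, a beta subunit that is linked to alpha subunits by a disulfide bond as Scn4b is, had 2.97 and 2.07 FPKM in dKO SNI, 5.04 and 5.31 in WT SNI, against 10.1 and 9.76 in dKO sham and 8.80 and 10.2 in WT sham. SNI and sham libraries were apart in both genotypes, whereas the 2 sham groups overlapped. Scn2b fell by 1.65 ± 0.15 in dKO (adjusted p = 8.8e-05) and by 0.76 ± 0.15 in WT mice (adjusted p = 0.0073). The WT calls of Scn4b and Scn2b were lost without library 2 of WT sham (adjusted p = 0.0727 and 0.0690), and that of Scn4b also without library 2 of WT SNI (0.0727), so that without this WT sham library only 3 members were called in WT mice and 1099 genes in all. Over all alternatives the adjusted p of the WT difference ranged from 0.00344 to 0.0727 for Scn4b and from 0.00275 to 0.178 for Scn2b.

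Scn3b, whose product associates with alpha subunits without a covalent bond, had the smallest injury change of the 3 beta subunits. It stood at 8.97 and 7.23 FPKM in dKO SNI, 13.6 and 15.4 in WT SNI, compared with 22.8 and 15.3 in dKO sham and 21.9 and 18.4 in WT sham, and the higher WT SNI library exceeded the lower dKO sham library. Scn3b fell in dKO mice (log2 change -1.12 ± 0.19, adjusted p = 0.00153). In WT mice the value was -0.44 ± 0.19 and was not called (adjusted p = 0.125). Over 12513 genes the replicate differences (library 2 minus library 1) correlated with the GC content of the transcript at r of 0.375 in dKO sham and -0.356 in WT SNI. The members followed this in part: the difference in dKO sham was 0.39 for Scn4b (54.5% GC) and -0.45 for Scn9a (42.4% GC), but also -0.21 for Scn10a (52.8% GC). In WT SNI the same differences were -0.63, 0.20 and -0.09. The relation was not tested over the members, and the part of GC in the member values was addressed by a correction added after seeing the data, under which Scn9a was also called in WT mice (-0.64, adjusted p = 0.00759).

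**Figure D2:**
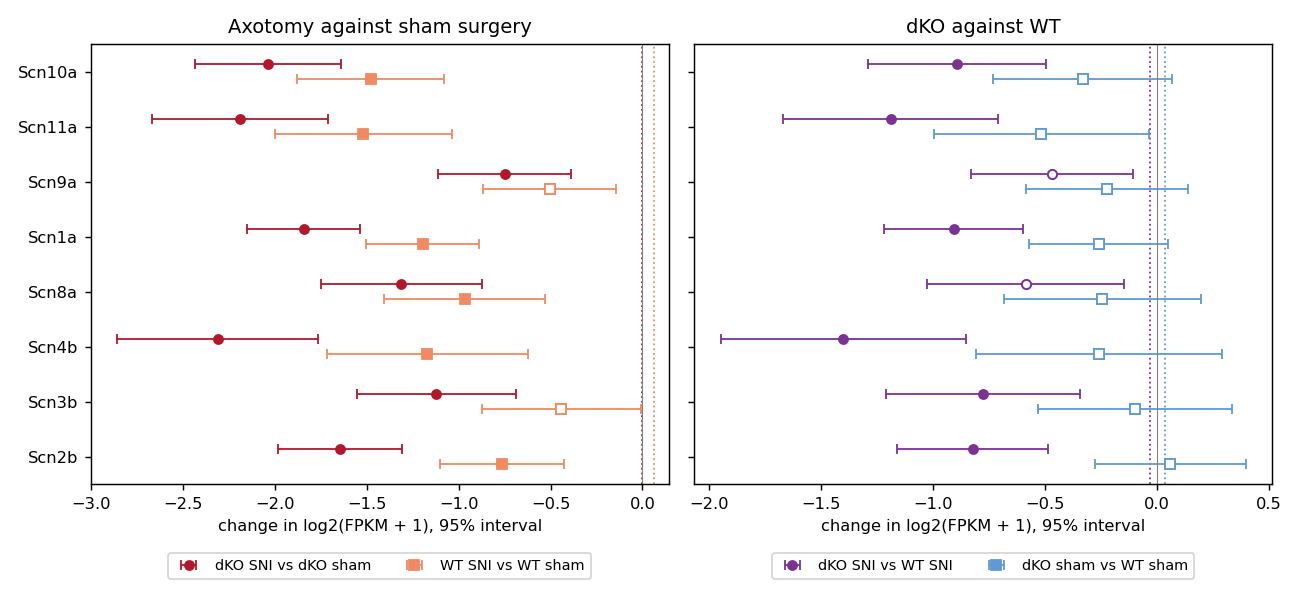
Change in log2(FPKM + 1) of the 8 tested sodium channel genes with 95% intervals, for axotomy against sham (left) and dKO against WT (right), with filled symbols for adjusted p under 0.05 and dotted lines at the median of all tested genes. Every injury change lies left of 0, from -2.31 for Scn4b in dKO to -0.44 for Scn3b in WT mice, and the genotype difference is called after SNI for 6 genes and after sham surgery for 0.

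Averaged over both genotypes, each side held libraries with and without Y-linked transcripts, although 2 of the 4 Y-linked genes were called higher after SNI (median 0.27). In this contrast the injury change was called lower for 8 of 8 members (25.5% of all tested genes). It held for 8 of 8 whichever library was left out. The values were -1.85 ± 0.15 for Scn11a, -1.76 ± 0.13 for Scn10a, -1.74 ± 0.17 for Scn4b, -1.52 ± 0.10 for Scn1a, -1.21 ± 0.11 for Scn2b, -1.14 ± 0.14 for Scn8a, -0.78 ± 0.14 for Scn3b and -0.63 ± 0.11 for Scn9a, with adjusted p from 7.6e-06 to 0.00154. A change of -1 or lower together with a call was met by 6 of the 8 and by 3.57% of all tested genes.

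The make-up of the alpha subunit transcripts differed between SNI and sham. Scn10a and Scn11a together held 63.2% and 55.0% of the summed FPKM of the 6 alpha subunits in dKO SNI, 67.3% and 65.4% in WT SNI, against 74.6% and 75.2% in dKO sham and 77.2% and 76.8% in WT sham. The share was lower in each SNI library than in each sham library. Scn9a alone held 26.1% and 33.7% in dKO SNI, 20.8% and 24.9% in WT SNI, compared with 15.6% and 13.6% in dKO sham and 13.6% and 12.8% in WT sham. The sensitive subunits did not all gain in this way. Scn1a held 4.35% to 5.41% in SNI and 5.25% to 5.95% in sham libraries, and Scn8a 4.03% to 5.95% and 3.82% to 5.15%. Scn3a, at its low level, held 0.536% to 1.40% and 0.123% to 0.341%. The ratio of Scn10a to Scn9a was 1.56 and 1.11 in dKO SNI and 1.97 and 1.60 in WT SNI, against 2.98 and 3.55 in dKO sham and 3.35 and 3.65 in WT sham. Between the 2 resistant subunits the ratio moved little by comparison: Scn10a over Scn11a was 1.81 and 2.11 in dKO SNI, 1.54 and 1.56 in WT SNI, against 1.63 and 1.79 in dKO sham and 1.44 and 1.56 in WT sham. In total the alpha subunits summed to 71.8 and 54.2 FPKM in dKO SNI, 116 and 112 in WT SNI, compared with 240 and 199 in dKO sham and 278 and 286 in WT sham. Shares and ratios are descriptions, with no test, of values that share a library.

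**Figure D3:**
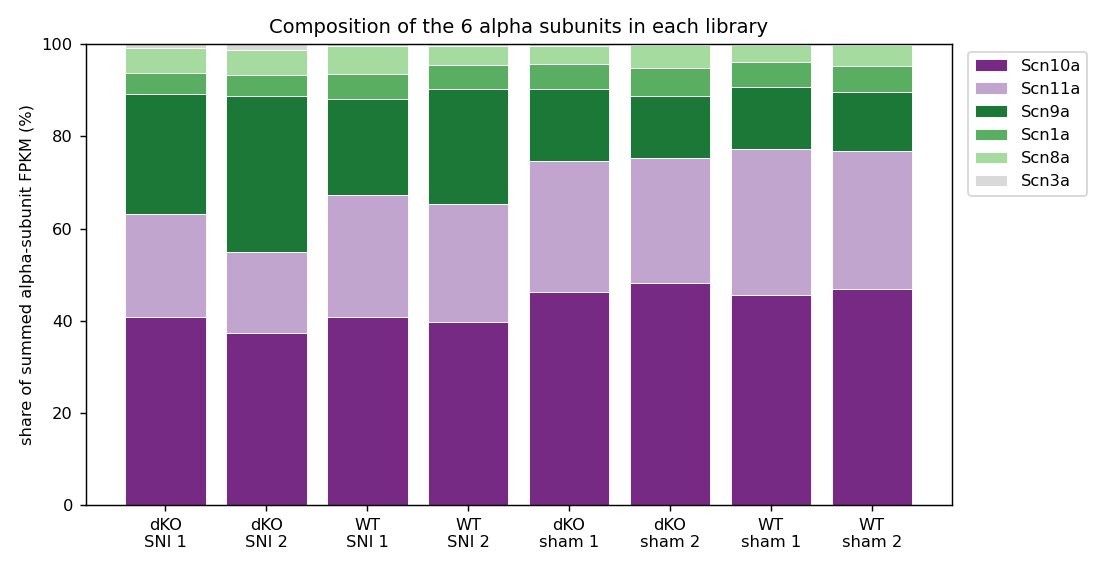
Share of summed FPKM (%) of the 6 alpha subunits in each library, with the tetrodotoxin-resistant Scn10a and Scn11a in purple and the tetrodotoxin-sensitive subunits in green and grey. The purple part is 55.0% to 67.3% in the 4 SNI libraries and 74.6% to 77.2% in the 4 sham libraries, and the Scn9a band holds 20.8% to 33.7% in SNI and 12.8% to 15.6% in sham libraries.

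The 3 beta subunits summed to 23.9 and 17.8 FPKM in dKO SNI, 54.1 and 43.3 in WT SNI, against 80.2 and 87.1 in dKO sham and 88.0 and 102 in WT sham. Relative to the summed alpha subunits this was 0.333 and 0.329 in dKO SNI, 0.466 and 0.387 in WT SNI, compared with 0.334 and 0.438 in dKO sham and 0.317 and 0.358 in WT sham, so SNI and sham values overlapped. Within the beta subunits, Scn4b over Scn3b was 1.33 and 1.18 in dKO SNI, 2.60 and 1.46 in WT SNI, against 2.07 and 4.06 in dKO sham and 2.62 and 4.01 in WT sham, and library 1 of WT SNI lay among the sham values.

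The dKO mice were compared with WT mice separately after each surgery. Besides the myosin genes, Avil, the Advillin gene, differed between the genotypes. It averaged 39.3 FPKM in dKO SNI against 127 in WT SNI, and 77.6 in dKO sham against 176 in WT sham. The part of Avil in the genotype differences was not tested. After SNI, 6 of 8 members were lower in dKO than in WT mice, where 13.4% of all tested genes were lower, with a median log2 difference of -0.86 against -0.03 over all genes. Scn4b differed most (-1.40 ± 0.24, adjusted p = 0.0112, or 35.3% of the WT SNI mean), followed by Scn11a (-1.19 ± 0.21, 0.0112), Scn1a (-0.91 ± 0.14, 0.00929), Scn10a (-0.89 ± 0.18, 0.0124), Scn2b (-0.82 ± 0.15, 0.0112) and Scn3b (-0.78 ± 0.19, 0.0223). Scn8a (-0.59 ± 0.20, adjusted p = 0.0549) and Scn9a (-0.47 ± 0.16, 0.0611) were not called. The dKO SNI and WT SNI libraries did not overlap for 8 of 8 members, with dKO lower, against 37.4% of all tested genes. All 6 calls were lost without library 1 of WT SNI (adjusted p of 0.0734 to 0.0969, 10 genes called in all) or without library 2 of dKO SNI (0.0729 to 0.157, 9 genes called in all). Without library 2 of WT SNI the call of Scn3b was lost (0.0712) and Scn8a was called (0.0224). Without library 1 or library 2 of dKO sham Scn9a was called (0.0327). Over all 19 alternatives the adjusted p ranged from 0.00361 to 0.974 for the 6 called genes and from 0.0168 to 0.339 for Scn8a and Scn9a.

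After sham surgery 0 of 8 members were called between dKO and WT mice with limma, and 20 genes (0.155% of those tested) were called in all. The 1 member with an unadjusted p under 0.05, Scn11a (0.0378), ranked 1144 by p among the 12884 tested genes. The difference that came nearest was Scn11a at -0.52 ± 0.21 (adjusted p = 0.425). Scn10a, Scn1a, Scn8a, Scn4b, Scn9a and Scn3b had values of -0.33, -0.26, -0.24, -0.26, -0.22 and -0.10, with adjusted p from 0.530 to 0.871, and Scn2b had 0.06 (0.895). The libraries of the 2 sham groups did not overlap for Scn10a, Scn11a, Scn1a and Scn8a, with dKO lower in each, against 18.3% of all tested genes lower without overlap. Averaged over both surgeries the genotype difference was called lower for Scn11a (-0.85 ± 0.15), Scn4b (-0.83 ± 0.17), Scn10a (-0.61 ± 0.13), Scn1a (-0.58 ± 0.10), Scn3b (-0.44 ± 0.14) and Scn2b (-0.38 ± 0.11), where 10.4% of all tested genes were lower. Fewer members were called without library 2 of WT sham, library 1 of WT SNI, library 2 of dKO sham or library 2 of dKO SNI. Fewer genes were called in all as well, with a single library left in the group concerned. The median of the members was -0.53, -0.52, -0.49 and -0.43 in these fits, beside -0.51 with all libraries. Scn1a was called in 8 of 8 such analyses, with an adjusted p of at most 0.0466, and Scn2b in 1 of 8.

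Whether the injury change itself differed between genotypes was tested by the interaction. It was negative for 8 of 8 members, with dKO falling further, at a median of -0.66 against -0.08 over all tested genes. It was called for 0 of 8 with limma, where 7 genes (0.0543%) were called in all. An unadjusted p under 0.05 was met by 4 of 8. The largest of these, 0.0330 for Scn3b, ranked 1345 among the 12884 tested genes. Scn2b had the smallest adjusted p (-0.88 ± 0.21, adjusted p = 0.218), Scn4b the largest value (-1.14 ± 0.34, 0.263) and Scn9a the smallest (-0.25 ± 0.23, 0.628). The Y-linked difference and this interaction cannot be told apart.

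Other transcripts of neurons were lower in the same libraries. Of 18 pan-neuronal markers such as Prph, Nefh and Rbfox3, 14 fell and 0 rose in the average injury contrast, at a median of -0.83, where 25.5% of all tested genes fell and 29.5% rose. They fell for 14 in dKO (24.6% of all tested genes) and for 6 in WT mice (9.38%). Between the SNI groups 12 of them differed, with dKO lower (13.4%). In the interaction 17 of them were negative, at a median of -0.56, with 9 at an unadjusted p under 0.05 and 0 called. Their mean log2(FPKM + 1) was 6.15 and 5.77 in dKO SNI, 6.90 and 6.59 in WT SNI, compared with 7.01 and 7.04 in dKO sham and 7.12 and 7.24 in WT sham. The group means had the order of those of Scn10a and Scn11a. Markers of nociceptors, the neurons known to carry Scn10a and Scn11a, fell for 5 of 6 and rose for 1 in the average injury contrast, at a median of -1.25. They ran from -2.12 ± 0.18 for Mrgprd, a receptor of nonpeptidergic nociceptors, to 0.27 ± 0.09 for P2rx3, an ATP-gated channel. Of 5 markers of low-threshold and proprioceptive neurons, 3 fell and 0 rose in that contrast. Their median was -0.47, with values from -1.05 to -0.17. Over the same libraries 9 of 9 macrophage markers rose, to summed levels of 320 and 376 FPKM in dKO SNI and 201 and 204 in WT SNI, against 37.9 and 52.6 in dKO sham and 34.1 and 24.8 in WT sham. The fibroblast markers rose for 6 of 6, with sums of 1033 and 1311 FPKM in dKO SNI and 542 and 829 in WT SNI, against 419 and 526 in dKO sham and 279 and 190 in WT sham. The summed level of 4 satellite glia markers ran from 509 to 662 FPKM in the SNI libraries and from 373 to 487 FPKM in the sham libraries. Its members went both ways: Fabp7 (0.45 ± 0.12) and Glul (0.50 ± 0.12), which carry most of the sum, rose, Kcnj10 fell (-0.59 ± 0.11), and Slc1a3 had 0.09 ± 0.09 and was not called. The part of these other cells in the channel values was not tested.

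Centring each library on the mean of those 18 markers raised the median of all tested genes to 0.79 in the average injury contrast, 0.75 in dKO SNI against WT SNI and 0.48 in the average genotype contrast. On that scale Scn11a (-1.11 ± 0.14, adjusted p = 4.12e-05), Scn10a (-1.01 ± 0.13, 4.06e-05), Scn4b (-0.99 ± 0.14, 7.63e-05), Scn1a (-0.77 ± 0.13, 0.00023), Scn2b (-0.46 ± 0.14, 0.00882) and Scn8a (-0.39 ± 0.13, 0.0152) were still lower after SNI, where 2.90% of all tested genes were lower and 81.6% higher. On the same scale 7 of the 18 pan-neuronal markers themselves and 4 of 6 nociceptor markers were called lower, and 4 and 1 higher, so members of those lists were apart from the mean as well. Scn3b had -0.03 ± 0.17 (0.855) and Scn9a, with its sign turned, 0.12 ± 0.16 (0.493). Over all 18 alternatives of that contrast the adjusted p reached 0.000283 to 0.855 for Scn3b, 0.000151 to 0.493 for Scn9a and at most 0.0152 for the other 6 members. Between dKO SNI and WT SNI the centring left only Scn4b called among the members (-0.62 ± 0.19, adjusted p = 0.016; 0.380% of all tested genes were lower), with Scn11a at -0.40 ± 0.19 (0.0776), and 3 members, Scn8a, Scn9a and Scn3b, had positive values of 0.20, 0.32 and 0.01. In the average genotype difference it left Scn11a (-0.38 ± 0.14, 0.0313) and Scn4b (-0.36 ± 0.14, 0.0395), where 0.318% of all tested genes were lower. In the interaction the centred median of the members was -0.03, against 0.54 over all tested genes.

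**Figure D4:**
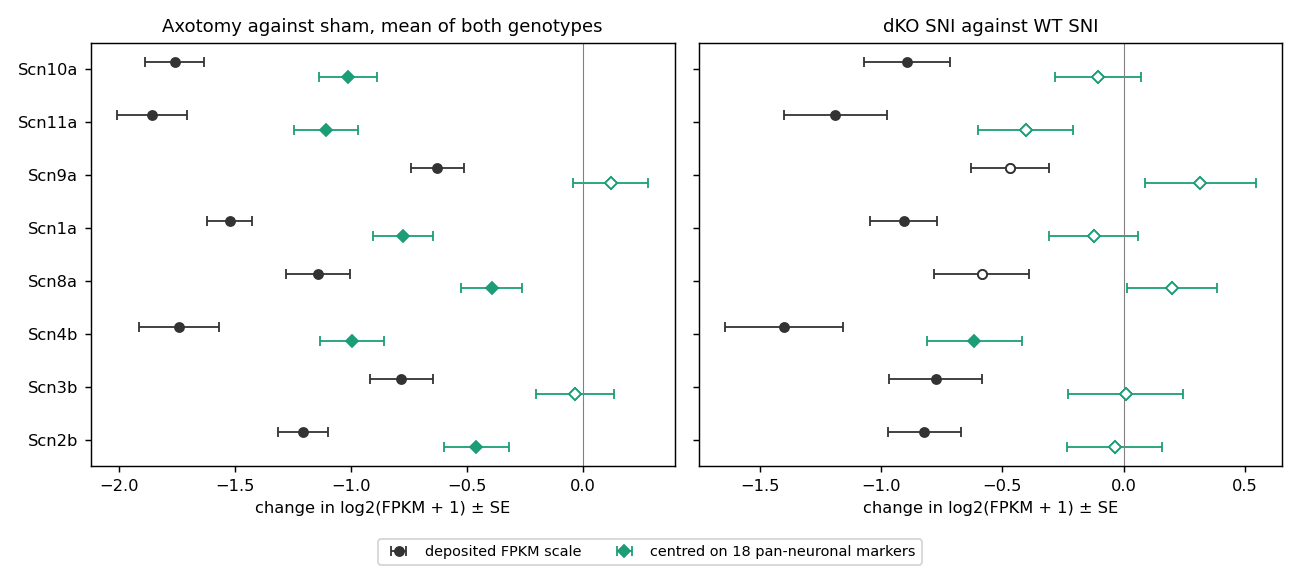
Change in log2(FPKM + 1) ± SE of the 8 tested sodium channel genes on the deposited scale (black) and with each library centred on 18 pan-neuronal markers (green), for axotomy averaged over both genotypes (left) and for dKO SNI against WT SNI (right), with filled symbols for adjusted p under 0.05. After centring, 6 genes stay below 0 with filled symbols on the left, and on the right only Scn4b does.

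Other genes of the family were measured in the same libraries. Nalcn, the sodium leak channel, had 1.86 and 1.46 FPKM in dKO SNI, 2.82 and 2.99 in WT SNI, compared with 5.95 and 4.38 in dKO sham and 6.05 and 6.77 in WT sham, and it fell in the average injury contrast by 1.06 ± 0.11 (adjusted p = 7.29e-05). Scn7a, a channel-like sodium sensor that is also found in glia, fell by 0.40 ± 0.14 (0.0302). Its values were 39.1 to 45.7 FPKM in the SNI libraries and 43.2 to 67.0 FPKM in the sham libraries. These overlapped over both genotypes together but not within either genotype. Scn4a, the skeletal muscle channel, ran from 0.276 to 1.77 FPKM with a value of -0.49 ± 0.15 (0.0179). It reached 1 FPKM only in library 2 of each sham group and so was tested only through the group where it was higher, which makes this value a description, and its highest value was in the WT sham library with muscle transcripts, whose part in it was not tested. Scn2a1, a brain channel, went the other way, with 2.34 and 3.27 FPKM in dKO SNI, 1.64 and 1.86 in WT SNI, against 2.06 and 1.31 in dKO sham and 2.17 and 1.72 in WT sham. It was called higher in dKO SNI against dKO sham (0.51 ± 0.18, adjusted p = 0.0452) but not in the average injury contrast (0.21 ± 0.13, 0.205). With centring on the pan-neuronal markers the falls of Nalcn (-0.32, adjusted p = 0.0806) and Scn7a (0.35, 0.0889, with its sign turned) were no longer called, Scn4a had 0.25, and Scn2a1 was called higher in that contrast (0.95 ± 0.21).

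Transcripts of proteins that hold sodium channels in place fell with them in part. Of 8 anchoring and node genes, 6 fell in the average injury contrast and 0 rose (median -0.58 against 0.04 over all tested genes), while with pan-neuronal centring 3 fell and 2 rose. Of all tested genes 25.5% fell and 29.5% rose in that contrast, and 2.90% fell and 81.6% rose with centring. The contactin Cntn1, a cell adhesion protein that binds beta subunits and helps bring channels to the surface, had 10.3 and 6.90 FPKM in dKO SNI, 21.0 and 19.6 in WT SNI, compared with 30.8 and 26.8 in dKO sham and 36.6 and 41.7 in WT sham. No 2 groups overlapped, and Cntn1 fell by 1.28 ± 0.12 (adjusted p = 5.2e-05). Its partners beside the node, Cntnap1 (Caspr) and Cntnap2 (Caspr2), fell by 1.48 ± 0.17 (0.000132) and 1.16 ± 0.13 (0.000104). With centring these 3 genes had values of -0.54, -0.73 and -0.41 and were the 3 still called lower.

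Of 16 tested genes for intracellular partners and turnover of the channels, 11 fell and 1 rose (median -0.56), and with pan-neuronal centring 3 fell and 6 rose. The shares of all tested genes that fell and rose were 25.5% and 29.5%, and with centring 2.90% and 81.6%. Tmem233, a membrane protein that associates with these channels and through which a plant toxin acts on them, had 64.8 and 47.0 FPKM in dKO SNI, 121 and 136 in WT SNI, against 296 and 238 in dKO sham and 365 and 327 in WT sham. The groups did not overlap, and the fall of 1.83 ± 0.13 (adjusted p = 1.39e-05; -1.09 with centring) was as large as that of Scn10a. Fgf12, an intracellular fibroblast growth factor homologue that binds the channel tail, fell by 0.97 ± 0.09 (4.33e-05; -0.23 and not called with centring), and Nedd4l, a ubiquitin ligase that removes channels from the membrane, by 1.23 ± 0.12 (4.99e-05; -0.48 with centring). The 1 gene that rose, named after its values were seen, was S100a10, whose product p11 brings NaV1.8 to the membrane. It stood at 1927 and 2669 FPKM in dKO SNI, 1117 and 1439 in WT SNI, compared with 612 and 695 in dKO sham and 666 and 531 in WT sham, and rose by 1.44 ± 0.17 (0.000139) while Scn10a fell. S100a10 is also expressed by many non-neuronal cells, whose markers rose as given above.

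The sodium pump restores the gradient that the channels use. Of its 6 subunit genes 5 fell and 0 rose (median -0.73), while with pan-neuronal centring 1 fell and 2 rose. For all tested genes the shares that fell and rose were 25.5% and 29.5%, and 2.90% and 81.6% with centring. The accessory subunits Atp1b3 and Atp1b1 fell by 0.66 ± 0.09 (0.000287) and 1.07 ± 0.17 (0.000683), with centred values of 0.09 and -0.32 that were not called.

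**Figure D5:**
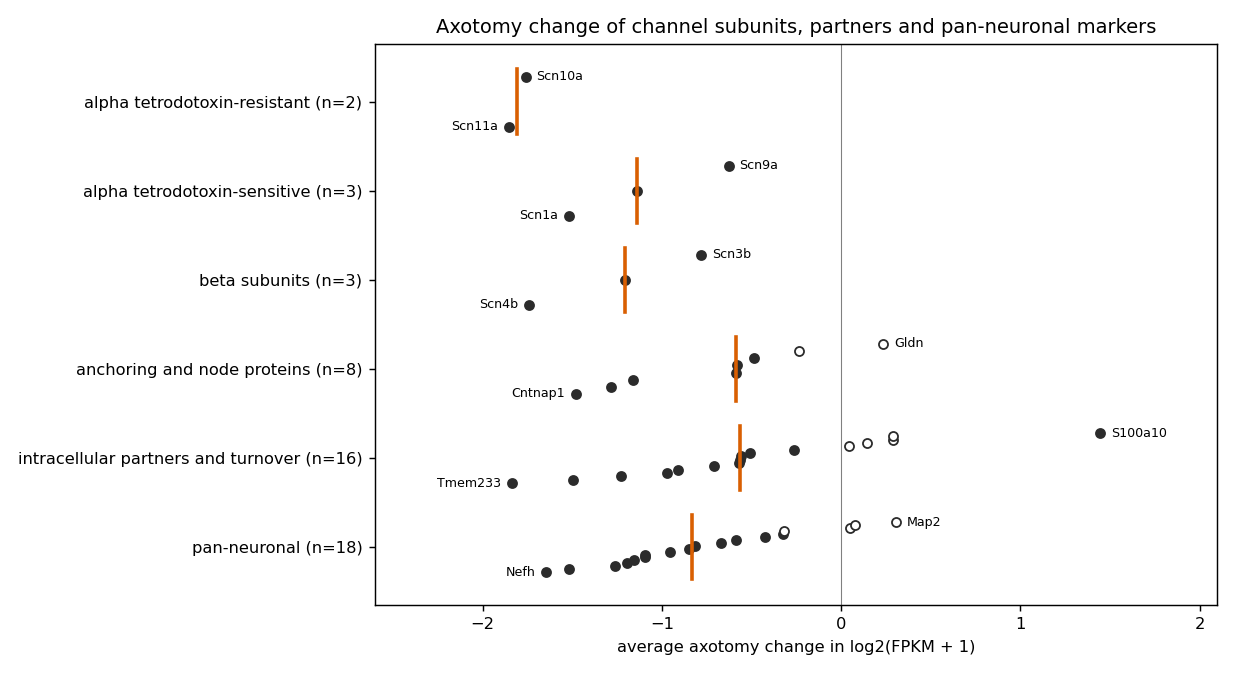
Average axotomy change in log2(FPKM + 1) of each tested gene (points, filled where adjusted p is under 0.05) in the sodium channel groups and in 3 other lists, with the median of each list as a vertical bar and the genes at the ends of each list named. The tetrodotoxin-resistant pair lies at -1.85 and -1.76, with the pan-neuronal markers at a median of -0.83 and the lowest of them at -1.65, and S100a10 is the only filled point above 0.

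The members resembled each other across the 8 libraries. Each correlated with the mean of the other 7 at r of 0.937 (Scn3b) to 0.997 (Scn1a) on the log2 scale, a description of libraries that share groups. Outside the family, the genes most like the mean profile of the members were Lrrn1 (r = 0.9988), Tshz2 (0.9984), Rgs3 (0.998), Herc3 (0.998) and Chrna7 (0.9979). Lrrn1 averaged 18.5 FPKM in dKO SNI, 40.4 in WT SNI, 79.0 in dKO sham and 103 in WT sham. For Scn3b, the member least like the rest, similar genes were Samd12 (0.991) and Kif3a (0.988). Kif3a averaged 34.3 FPKM in dKO SNI, 50.6 in WT SNI, 56.1 in dKO sham and 57.8 in WT sham, a profile in which WT SNI lay nearer to sham.

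The promoters of the 2 neighbouring resistant genes are shown because these genes had the 2 lowest values of the members in the average injury contrast. They are RefSeq windows on GRCm38.p6, from 250 bases before to 50 bases after the transcript start, on the minus strand at chr9:119718983-119719282 for Scn10a and chr9:119825407-119825706 for Scn11a.
Scn10a: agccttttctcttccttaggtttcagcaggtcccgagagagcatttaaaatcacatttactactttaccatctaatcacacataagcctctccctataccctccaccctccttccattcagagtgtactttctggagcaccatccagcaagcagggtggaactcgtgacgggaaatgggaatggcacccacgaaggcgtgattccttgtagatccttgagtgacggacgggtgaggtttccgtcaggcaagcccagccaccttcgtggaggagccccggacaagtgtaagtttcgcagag
Scn11a: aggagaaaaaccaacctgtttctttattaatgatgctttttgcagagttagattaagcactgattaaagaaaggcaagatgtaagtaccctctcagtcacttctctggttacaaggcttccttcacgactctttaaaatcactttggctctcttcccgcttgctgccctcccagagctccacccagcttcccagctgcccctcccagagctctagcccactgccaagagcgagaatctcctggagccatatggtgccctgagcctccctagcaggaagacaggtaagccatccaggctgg
Of the 9 members, 7 had such windows, 8 in all. On both strands the AP-1 motif TGANTCA, the CRE motif TGACGTCA and the TATA motif TATAAA were in 0 of the 8, and were in 7.81%, 1.79% and 13.6% of all 32851 windows. The CCAAT motif was in 2 of the 8, those of Scn1a and Scn4b, and in 37.4% of all windows.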

How the data were processed

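Per the labels' protocols, total RNA went into a TruSeq paired-end preparation whose strandedness is not stated. StringTie 1.3.0 and HISAT2 2.0.4 are listed in the submitters' processing notes, beside edgeR (no version) and the genome builds mm10 and GRCm38.p4, with neither their roles nor the annotation. Expression was deposited as FPKM, in a table of 21878 gene rows and 8 columns, each matched to its library by the sample description. FPKM depends on each library's total and on the transcript models. Low values did not step in whole fragments (22.9% to 29.9% of low-value ratios lay within 0.1 of their mode on the log2 scale), so no count model was run. No 2 libraries were identical, and replicates correlated at r of 0.984 to 0.989 over tested genes.

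The 12884 genes that reached 1 FPKM in at least 2 libraries were tested on log2(FPKM + 1), which understates changes of low genes, with limma 3.58.1 in R 4.3.3: 1 mean per group, 4 residual degrees of freedom, a mean-variance trend, two-sided tests, and Benjamini-Hochberg adjustment over all tested genes at 0.05. There were 7 contrasts, and those that share a group share its libraries. The steps were tested on simulated data. The members and gene lists were chosen with earlier results of these data known. The rule for named genes took all members, the listed rest of the family, the 3 genes with the smallest p in the average injury contrast from each partner list, and the 5 and 3 genes of highest likeness, and some of these are not reported here. Symbols were placed in GENCODE vM21 (GRCm38), and sequences came from it and from RefSeq (GRCm38.p6). Alternatives varied the pseudocount, the filter, the scaling, the variance model, the groups fitted, a replicate term, a GC correction added after seeing the data, and each library in turn.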

Additional observations from a re-analysis of the deposited data

How the results depend on the processing

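The member counts of 8 in dKO SNI against dKO sham, 8 in the average injury contrast, 0 between the sham groups and 0 in the interaction were the same whichever library was left out. Without 1 library the member count changed in the other 3 contrasts, and so did the number of genes called in all. The median of the members then ranged from -1.24 to -0.83 in WT SNI against WT sham. It ranged from -1.03 to -0.64 in dKO SNI against WT SNI and from -0.60 to -0.43 in the average genotype contrast. Without the filter on low values the average genotype count was 3, with more genes in the adjustment and 1142 genes called in all. Centring on the pan-neuronal markers gave counts of 5 in dKO SNI against dKO sham, 1 in dKO SNI against WT SNI and 2 in the average genotype contrast. This centring called 10930, 9338 and 8187 genes there in either direction, of which 49 and 41 were lower in the last 2. It also turned the sign of Scn9a in dKO SNI against dKO sham (0.31) and in the average injury contrast (0.12), of Scn3b between the sham groups (0.059), of Scn8a (0.20), Scn9a (0.32) and Scn3b (0.0085) in dKO SNI against WT SNI, of Scn8a (0.055), Scn9a (0.12), Scn2b (0.090) and Scn3b (0.034) in the average genotype contrast, and of Scn8a (0.29), Scn9a (0.38) and Scn10a (0.069) in the interaction. Between the sham groups the value without 1 library ranged from -0.036 to 0.16 for Scn2b, from -0.37 to 0.18 for Scn3b and from -0.45 to 0.0044 for Scn9a. Beyond what the construction of an alternative shows, the cause was not tested.

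The replicate numbers are not shown to pair libraries: deviations of libraries with the same number correlated at -0.188 to 0.254 over the 6 pairs of groups. With the replicate block the member counts were 6 in WT SNI against WT sham, 8 in dKO SNI against dKO sham, 0 between the sham groups, 6 in dKO SNI against WT SNI, 8 and 6 in the average injury and genotype contrasts and 0 in the interaction, and with block and GC correction they were 8, 8, 0, 7, 8, 8 and 0. In the same order 2881, 6067, 47, 3022, 6904, 2813 and 12 genes were called in all with the block. With block and GC correction these were 3569, 6388, 46, 3717, 7192, 3677 and 15. Read depth is unknown, so no counting interval can be given for the low values of Scn3a.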
